A study of Mus musculus with 2 samples.

Results

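The variable (V) segments of the T cell receptor were examined as the 97 genes whose symbols start with Trav, Trbv, Trdv or Trgv and that had at least 5 UMIs (unique molecular identifiers, which mark single RNA molecules) over both libraries, of 170 such genes in the count tables and of 32285 genes in all. They were 68 Trav, 24 Trbv, 4 Trdv and 1 Trgv genes, and the remaining 73 genes had fewer UMIs, 55 of them none. Members were chosen by these summed UMIs, so detection itself is not a result. Just inside the limit were Trav13d-3, Trav3-4 and Trav5-1 with 5 UMIs each, and just outside it were Trav1, Trav9d-1 and Trav9d-4 with 4 each. Single-cell RNA sequencing had been run on 7-AAD-negative (live) CD45+ cells of mouse hearts. The hearts had been infarcted on postnatal day 2 and were collected after 7 more days, when the mice were 9 days old. The WT library held cells of 5 pooled hearts and the Lyve1 KO library cells of 5 pooled hearts from mice that lack the hyaluronan receptor LYVE-1 in all tissues (Lyve1-/-). Both groups had the infarct, and uninjured hearts were not analysed here. With 1 library per genotype there is no replicate check: no p-value was computed, and all intervals are 95% intervals that cover counting error only. The paper separated the pooled hearts by single-nucleotide polymorphisms, but cells were not assigned to hearts here.

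A T cell receptor is built from an alpha and a beta chain or from a gamma and a delta chain. In the thymus, the RAG1 and RAG2 recombinase joins 1 of many V segments of a locus to a joining segment, with a diversity segment between them at the beta and delta loci, so that each cell reads out few segments of the pool. The beta chain is joined first and pairs with the surrogate chain encoded by Ptcra, and the alpha chain follows in cells that carry both CD4 and CD8. The delta locus lies inside the alpha locus, and V segments named with "dv" can serve both. Reads of the 5′ chemistry used here start at the front end of the transcript, which is where the V segment lies.

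T cells were taken as cells with at least 3 UMIs of Cd3d, Cd3e and Cd3g together, the invariant chains of the receptor complex. These were 381 of 4285 kept WT cells and 566 of 3464 kept KO cells, with medians of 14336 and 14272.5 UMIs per cell. The summed depth was 67968938 UMIs in the WT and 61555917 in the KO library. Lyve1 itself, which checks the labels, had 16010 UMIs in kept WT cells and 775 in kept KO cells. The libraries shared 9 cell barcodes, of which 1 was a WT T cell and 0 were KO T cells. Among T cells, 25 WT and 28 KO cells also held at least 3 UMIs of the B cell genes Cd79a, Cd79b and Ms4a1, and 7 and 1 held at least 10 UMIs of the macrophage genes C1qa, C1qb and C1qc. No doublet caller was run, and counts without these cells are given as an alternative.

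The T cells were divided by UMIs of a few genes that are not members. Cells with a UMI of Rag1 or Dntt, which encodes the enzyme that adds bases at the joints, formed the Rag1/Dntt-positive group (87 WT and 64 KO cells). Of the rest, cells with a UMI of Trdc, the delta constant gene, formed the Trdc-positive group (50 and 76), cells with Cd4 but no Cd8a or Cd8b1 the CD4 group (99 and 175), and the reverse the CD8 group (53 and 118). The other 92 WT and 133 KO cells had neither coreceptor, or both (9 and 37). A cell was given the V segment of a locus with the most UMIs, if these were at least 2 and more than those of any other segment of the locus.

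The germline 3′ ends of the segments on which the results turn are shown here, taken from GENCODE transcripts on GRCm38, because the recombined chain keeps this end next to its junction. Capitals mark the codon of the conserved cysteine that opens the junction. The delta and gamma segments come first.
Trdv4: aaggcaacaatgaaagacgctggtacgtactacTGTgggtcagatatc
Trdv2-2: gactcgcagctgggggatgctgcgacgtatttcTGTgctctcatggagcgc
Trdv2-1: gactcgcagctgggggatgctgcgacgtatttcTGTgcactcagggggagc
Trdv5: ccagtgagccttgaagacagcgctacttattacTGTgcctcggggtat
Trdv1: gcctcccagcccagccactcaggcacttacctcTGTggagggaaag
Trgv2: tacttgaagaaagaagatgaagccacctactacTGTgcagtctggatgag
Tcrg-V6: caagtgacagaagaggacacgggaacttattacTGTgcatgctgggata

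The beta segments shown are those that differed most between libraries or between the CD4 and CD8 groups, with Trbv13-2, which was read together with Trbv12-2.
Trbv5: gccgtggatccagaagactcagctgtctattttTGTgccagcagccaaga
Trbv31: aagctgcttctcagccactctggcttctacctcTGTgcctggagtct
Trbv15: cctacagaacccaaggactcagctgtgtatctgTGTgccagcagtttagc
Trbv19: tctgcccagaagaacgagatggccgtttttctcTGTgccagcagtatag
Trbv14: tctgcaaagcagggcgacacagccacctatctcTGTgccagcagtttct
Trbv12-2: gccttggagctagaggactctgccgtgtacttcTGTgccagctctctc
Trbv13-2: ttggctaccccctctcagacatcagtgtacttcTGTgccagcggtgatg

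The alpha segments shown are a pair of identical copies and the most used segment near the constant gene.
Trav11: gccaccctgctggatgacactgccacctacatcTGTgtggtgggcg
Trav11d: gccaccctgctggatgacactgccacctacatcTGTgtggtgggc
Trav21-dv12: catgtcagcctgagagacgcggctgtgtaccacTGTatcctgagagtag

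The beta segments lie on chromosome 6, Trbv5 at chr6:41062332-41062803, Trbv12-2 at chr6:41118851-41119364, Trbv13-2 at chr6:41121396-41121832, Trbv14 at chr6:41135145-41135616, Trbv15 at chr6:41141188-41141658, Trbv19 at chr6:41178375-41179048 and Trbv31, in the inverse orientation, at chr6:41557691-41558452. The delta segments lie on chromosome 14, Trdv1 at chr14:53881612-53882217, Trdv2-2 at chr14:53960944-53961602, Trdv4 at chr14:54074905-54075515 and Trdv5, inverted, at chr14:54148662-54149294. Trgv2 (chr13:19336573-19337167) is the only gamma segment named with Trgv. The other gamma segments, Tcrg-V1 and Tcrg-V3 to Tcrg-V7, are not members by their names, but their values are given where the gamma chain is described. Trdv5 overlaps Trdc on the opposite strand, Trbv5 overlaps the noncoding gene 5830405F06Rik on the same strand, and Trdv4 and Trdv2-2 each overlap an antisense gene, so their UMIs carry that uncertainty.

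Nearly all UMIs of the members came from the T cells. Of 14582 UMIs of the members in kept WT cells, 14084 (96.6%) were in T cells, and in the KO library 18948 of 19332 (98.0%) were. By locus the members had 10992 (WT) and 13533 (KO) Trbv UMIs, 1425 and 2925 Trav UMIs, 1297 and 2025 Trdv UMIs and 370 and 465 Trgv2 UMIs in T cells. In B cells without a Cd3 UMI, at least 2 UMIs of a Trbv segment were held by 2 of 598 WT cells (0.334%, interval 0.0405% to 1.20%) and 0 of 637 KO cells (upper bound 0.577%), and in macrophages by 0 of 1433 WT and 1 of 646 KO cells. These shares, at medians of 16966 to 26610 UMIs per cell, give the level of free RNA. The lowest share of cells given a Trbv segment in any T cell group was 28%.

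The members with the most UMIs in cells without any Cd3 UMI were Trdv4 with 53 WT and 88 KO UMIs, Trbv15 with 45 and 10, and Trbv12-2 with 11 and 30. Of the 9 WT and 14 KO cells with at least 2 Trdv4 UMIs and no Cd3 UMI, 7 and 11 had a UMI of Gata3 and 3 and 11 a UMI of Il1rl1, which encodes the IL-33 receptor; both genes are known markers of type 2 innate lymphoid cells. Cells with UMIs of both genes and no Cd3 UMI numbered 13 in WT and 14 in KO, and 3 and 9 of them had at least 2 Trdv4 UMIs. Among the 9 WT and 14 KO cells above, Klrb1c, a natural killer T cell marker, had a UMI in 3 and 1. Trdc, the delta constant gene, had one in 2 and 1. What type these cells were was not tested.

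Which Trav genes became members went with how much of their sequence is unique. Each segment's transcripts were cut into all windows of 60 bases, and a window was called unique when no other annotated T cell receptor V gene held it. The median share of unique windows was 62.0% for the 68 Trav members and 0% for the 42 Trav genes below 5 UMIs that are not annotated as pseudogenes. Of these 42, 39 were under 50% unique, against 24 of the 68 members. In the 24 Trbv members the median was 100%, and none was under 50%. The 11 Trbv genes below the limit were all annotated as pseudogenes, as were 18 of the 60 Trav genes below it. Reads that match several genes equally are left out when UMIs are counted, and how many V segment reads this removed was not tested.

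The invariant chain of natural killer T cells joins Trav11 to Traj18. Trav11 (chr14:53519303-53519859) and Trav11d (chr14:52824357-52824912) share an unbroken run of 342 bases, all of the 342-base Trav11d transcript, and 0% of the windows of either was unique. In T cells Trav11 had 0 UMIs in both libraries and Trav11d had 1 WT and 0 KO UMIs. Traj18 had 5 UMIs in 5 of 381 WT T cells and 27 UMIs in 23 of 566 KO T cells, none of them a cell with a Trav11 or Trav11d UMI. Few such cells and reads lost between the copies cannot be told apart here. Trav1, the V segment of mucosal-associated invariant T cells, is 100% unique by the same measure and had 4 UMIs, all in 1 KO T cell.

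The share of cells given a segment followed the group (the plot of cells given a segment by group). A Trbv segment was given to 84 of 99 WT and 159 of 175 KO cells of the CD4 group, and to 49 of 53 and 105 of 118 cells of the CD8 group. A Trav segment was given to 54 (54.5%) and 107 (61.1%) CD4 cells and to 36 (67.9%) and 76 (64.4%) CD8 cells. Trdv segments were given to 2 WT and 4 KO cells of the CD4 group and to 1 and 2 of the CD8 group. In the Trdc-positive group the order was the reverse, with Trdv segments in 42 of 50 WT cells (84%, interval 70.9% to 92.8%) and 56 of 76 KO cells (73.7%, 62.3% to 83.1%), and Trbv segments in 14 (28%) and 29 (38.2%). This group was formed by UMIs of Trdc, the constant gene of the same delta chain. The CD4 and CD8 groups leave out cells with a Trdc UMI, so part of the Trdv difference was fixed in advance.

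**Figure D1:**
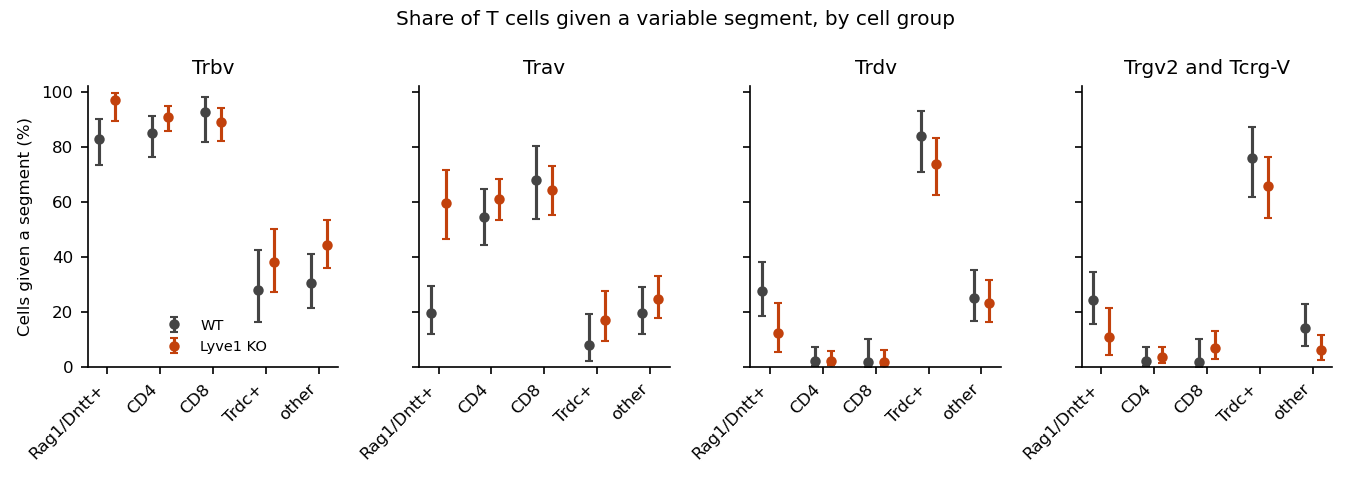
Percent of cells in each T cell group that were given a segment of the beta (Trbv), alpha (Trav), delta (Trdv) and gamma (Trgv2 and Tcrg-V) loci, for WT (grey) and Lyve1 KO (orange), with exact binomial 95% intervals for counting error. Trav differed most between the libraries in the Rag1/Dntt-positive group, at 19.5% in WT and 59.4% in KO.

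The Rag1/Dntt-positive cells differed between the libraries in which loci they read out. In WT, 72 of 87 cells (82.8%) were given a Trbv segment and 17 (19.5%, interval 11.8% to 29.4%) a Trav segment. In KO these were 62 of 64 (96.9%) and 38 (59.4%, 46.4% to 71.5%). The KO minus WT difference for Trav was 39.8 points (24.3 to 53.0). With cells thinned to 5100 UMIs it was 28.1 points (14.1 to 41.8), from 8.75% to 36.8%. Thinning left out 7 shallower cells of the group in each library. The groups were set from full-depth counts before thinning, so membership still depended on depth. The WT cells of this group were deeper, with a median of 31617 UMIs against 11560.5. Delta and gamma segments went the other way, with Trdv in 24 cells (27.6%) in WT and 8 (12.5%) in KO. The KO minus WT value was -15.1 points (-26.9 to -1.88) at full depth and -2.98 points (-12.5 to 7.84) after thinning.

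Genes of the stages of thymocyte development moved with this difference, and their part in it was not tested. Ptcra had a UMI in 65 of 87 WT cells and 34 of 64 KO cells of the group (98.4 and 60.2 CPM, log2 ratio -0.63). The proliferation genes Mki67 and Top2a had one in 67 and 70 WT cells and in 33 and 29 of the shallower KO cells, but their CPM differed by less, from 951 to 769 CPM for Mki67 (log2 ratio -0.30) and from 1605 to 1380 CPM for Top2a (-0.22). Cd4 had one in 49 WT (56.3%) and 52 KO cells (81.2%), Cd8b1 in 63 (72.4%) and 59 (92.2%), and Trac was at 22.8 and 67.3 CPM (counts scaled to the same total of UMIs in the same cells). Rag1 (239 and 328 CPM) and Dntt (440 and 510 CPM) define the group, and Rag2 was at 34.9 and 40.1 CPM. The 9 thymocyte markers summed to 2705 CPM (WT) and 3291 CPM (KO) here, against 1608 and 1725 CPM in the CD8 group, which shares Cd8a and Cd8b1 with this list, and 561 and 486 CPM in the CD4 group. Rag1 and Dntt are among these 9 markers and are absent from the other groups by definition. The CD8 group likewise lacks Cd4, and the CD4 group lacks Cd8a and Cd8b1. Part of the difference between these sums was therefore fixed in advance. The 5 B cell markers summed to 179 and 231 CPM and the 5 macrophage markers to 519 and 439 CPM, but the latter moved in opposite directions. C1qa, C1qb and C1qc were at 92.5, 85.1 and 88.5 CPM in WT and at 0, 1.77 and 0.59 CPM in KO, whereas Lyz2 was at 220 and 421 CPM. In WT, C1qa, C1qb and C1qc had a UMI in 8, 11 and 7 of the 87 cells.

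Trbv usage, the share of cells given each segment among those given any Trbv, was spread over the locus in both libraries (the plot of Trbv usage). Of the 24 Trbv members, 23 were given to at least 1 T cell and 21 to T cells of both libraries. The most used in WT were Trbv12-2 and Trbv5 with 27 of 247 cells each (10.9%, interval 7.33% to 15.5%), Trbv15 with 24, Trbv19 with 23 and Trbv1 with 19. In KO they were Trbv12-2 with 54 of 414 cells (13.0%, 9.95% to 16.7%), Trbv19 with 44, Trbv31 with 36, Trbv3 with 30 and Trbv15 with 28. Neighbours in these orders lay within each other's intervals. UMIs of Trbv12-2 were read in 96 WT and 192 KO T cells, more than were given it, and it was the most frequent second segment (below). How far this raised its usage was not tested. UMIs of Trbv13-2 were read in 46 WT and 93 KO T cells, while 3 and 8 cells were given it.

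**Figure D2:**
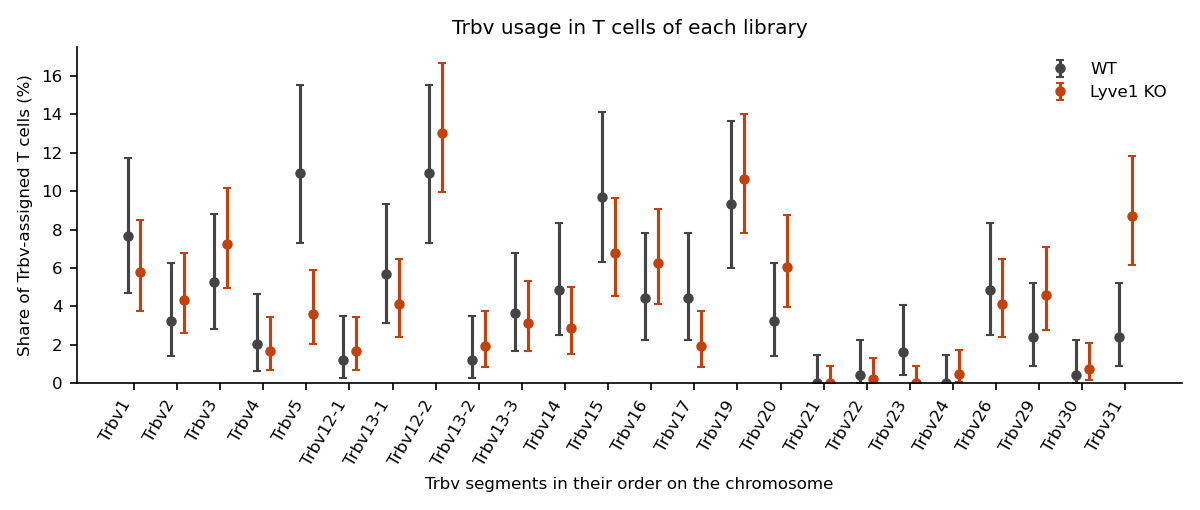
Share of T cells given each Trbv segment among T cells given any (y axis, percent; 247 WT cells in grey and 414 Lyve1 KO cells in orange), with the 24 members in chromosome order and exact binomial 95% intervals for counting error. Trbv5 lies at 10.9% in WT and 3.62% in KO, and Trbv31 at 2.43% and 8.70%.

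Between the libraries, 3 of the 24 Trbv members had an interval of the usage difference that left out 0, with no correction for the number of segments. Trbv31, the inverted segment beyond the constant genes, was found in 6 cells in WT (2.43%, 0.897% to 5.21%) and 36 in KO (8.70%, 6.16% to 11.8%), which is 6.27 points more (2.64 to 9.64). Its share was higher in KO in each group: 1 of 72 against 7 of 62 Rag1/Dntt-positive cells, 3 of 84 against 18 of 159 CD4 cells, 1 of 49 against 4 of 105 CD8 cells, 0 of 14 against 2 of 29 Trdc-positive cells and 1 of 28 against 5 of 59 of the other cells. UMIs of Trbv31 were read in 20 WT and 44 KO T cells, more than were given it. It was the second segment in 7 of 89 WT and 3 of 164 KO cells with a second Trbv segment (below). The part of this in its usage difference was not tested. Over the alternative settings the Trbv31 difference ran from 2.56 to 6.27 points. Trbv5 was found in 27 cells in WT (10.9%) and 15 in KO (3.62%, 2.04% to 5.91%), for a KO minus WT value of -7.31 points (-12.0 to -3.30). Its share was lower in KO in each group, in the same order at 9 of 72 against 4 of 62, 6 of 84 against 5 of 159, 4 of 49 against 4 of 105, 2 of 14 against 0 of 29 and 6 of 28 against 2 of 59. The groups are parts of the same cells, so their equal sign is no separate support for the Trbv31 or Trbv5 difference. UMIs of Trbv5 were read in 33 WT and 31 KO T cells, and it was the second segment in 3 WT and 8 KO cells. The part of this in the Trbv5 difference was not tested. Trbv23 was given to 4 WT cells and 0 of 414 KO cells (exact upper bound 0.887%). Whether such differences exceed those between pools of hearts of 1 genotype cannot be told from single libraries.

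Trbv20 had the next largest positive difference, at 8 WT and 25 KO cells (2.80 points, interval -0.777 to 5.95). Trbv12-2 (2.11 points, -3.25 to 6.99) and Trbv19 (1.32 points, -3.69 to 5.82) differed by less than their counting error. For Trbv15 the direction depended on the measure, with -2.95 points by cells and 5.63 points by the share of Trbv UMIs.

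Over the summed UMIs of all T cells, 4 of the 75 members with at least 20 UMIs had a log2 ratio of KO over WT, on CPM + 10, of at least 1 in size (5.33%), against 0.927% of 12724 genes. With 1 CPM added in place of 10, 23 members passed on the KO side and 4 on the WT side, against 2 and 2 with 10 CPM, and 2.07% and 3.27% of all genes did. The sum of a V segment rests on the few cells that use it, so nothing is read from this share about the members as a list. Trbv29 (1.19, from 27.5 to 75.4 CPM, in 7 WT and 21 KO cells) and Trbv20 (1.18, 24.2 to 67.4 CPM, 15 and 41 cells) were higher in KO; 0.322% of all genes were. Trbv17 (-1.52, 151 to 46.1 CPM, 12 and 14 cells) and Trbv5 (-1.48, 116 to 35.3 CPM, 33 and 31 cells) were lower, as were 0.605% of all genes. The Rag1/Dntt-positive group held 6647 of all 10992 Trbv UMIs of WT T cells and 4205 of all 13536 of KO T cells. Its part in these ratios was not tested. A single cell gave 35.2% of the Trbv5 UMIs in KO, and a single cell gave 71.3% of the 415 Trbv31 UMIs in WT, whose log2 ratio was 0.56. The other 22 members had too few UMIs for a ratio. The median log2 ratio was 0.14 over the members tested and -0.04 over all genes tested.

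Of the 31 constant, receptor complex, recombination, coreceptor and signalling genes of the pathway, 0 had a log2 ratio of 1 or more and 3 had one of -1 or less over all T cells: Ptcra (-1.35), Xrcc6 (-1.04), a subunit of the Ku end-joining complex, and Dntt (-1.04). Of the 12724 genes tested over all T cells, 0.322% had a ratio of 1 or more and 0.605% one of -1 or less. In WT, Xrcc6 was at 322 CPM in the Rag1/Dntt-positive group and 148 CPM over all T cells, and Ptcra at 98.4 and 41.7 CPM. This group was 22.8% of WT and 11.3% of KO T cells by number. Its cells had a median of 31617 UMIs in WT and 11560.5 in KO, so these shares do not give its part of the summed UMIs. Within that group Trac (1.24) and Cd5 (1.36), whose level follows receptor signalling, had a ratio past 1, as did 1.08% of all genes tested in that group in either direction. In the Trdc-positive group 4 of the 31 were at least 1 in size (4.51% of all genes), in the other cells 2 (1.98%), in the CD4 group 0 (2.37%) and in the CD8 group 0 (1.52%). Fewer cells of a type and less RNA per cell cannot be told apart in the sums over all T cells alone. Within the Rag1/Dntt-positive group the log2 ratio of KO over WT was 0.21 for Dntt, -0.15 for Xrcc6 and -0.63 for Ptcra. The part of the group's smaller share in the sums was not tested.

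CD4 and CD8 cells of the same library used some Trbv segments unequally (the plot of CD4 minus CD8 usage). Of the 24 Trbv members, 7 had a higher share in CD4 cells in both libraries, 7 a higher share in CD8 cells in both, and 5 had opposite signs. Trbv15 was given to 13 of 84 CD4 and 2 of 49 CD8 cells in WT, a difference of 11.4 points (interval -0.06 to 21.1), and to 20 of 159 CD4 and 0 of 105 CD8 cells in KO, 12.6 points (7.03 to 18.6). Trbv2 went the same way, with 5 of 84 against 0 of 49 cells in WT and 11 of 159 against 2 of 105 in KO. Trbv19 was given to 13 of 84 CD4 and 2 of 49 CD8 cells in WT, but to 19 of 159 (11.9%) and 12 of 105 (11.4%) in KO.

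Trbv12-2, Trbv14 and Trbv29 had the largest mean of both libraries' differences on the CD8 side among Trbv segments of equal sign in both. Trbv14 was given to 6 of 49 CD8 and 2 of 84 CD4 cells in WT, a CD4 minus CD8 difference of -9.86 points (-22.0 to -1.08), and to 7 of 105 and 1 of 159 in KO, -6.04 points (-12.5 to -1.60). Of all Trbv and Trav members, Trbv14 was the 1 whose interval left out 0 in both libraries. Trbv12-2 was given to 8 of 49 CD8 cells (16.3%) and 4 of 84 CD4 cells (4.76%) in WT, and to 17 of 105 (16.2%) and 14 of 159 (8.81%) in KO, differences of -11.6 (-24.6 to -1.17) and -7.39 points (-16.3 to 0.58). Trbv29 differed by -6.97 (-18.0 to 0.24) and -2.89 points (-9.66 to 2.52). Trbv12-2 was also read in cells that were not given it (above), and the part of this in its CD4 and CD8 shares was not tested.

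**Figure D3:**
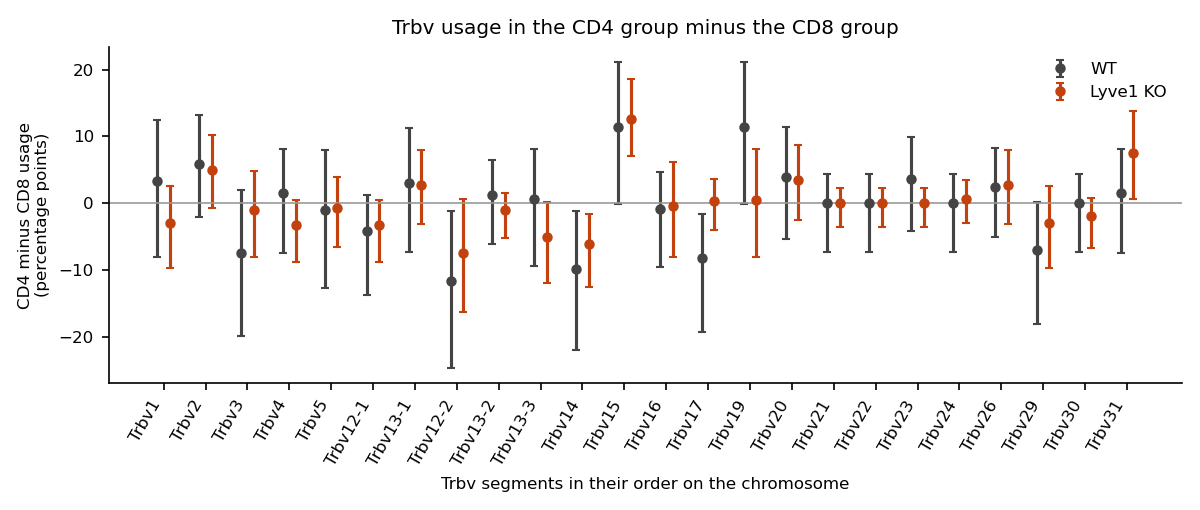
Usage of each Trbv segment in the CD4 group minus its usage in the CD8 group of the same library (y axis, percentage points; WT grey, Lyve1 KO orange), with Newcombe 95% intervals for counting error. Trbv15 lies above 0 in both libraries (11.4 and 12.6 points) and Trbv14 and Trbv12-2 lie below 0 in both.

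Trav usage was thinner, with 129 WT and 267 KO cells over 68 members. In all T cells 63 members were given to at least 1 cell, 42 of them in both libraries, 3 in WT alone and 18 in KO alone, the library with more cells. The most used in WT were Trav4-4-dv10 with 8 cells, and Trav13-1, Trav21-dv12 and Trav14n-3 with 7 each, followed by Trav6-7-dv9, Trav14-2 and Trav16 with 6 each. In KO they were Trav13-1 and Trav6-7-dv9 with 14 each, Trav13-2 and Trav21-dv12 with 11 each, and Trav3-3 and Trav7-4 with 10 each. Of the 68 intervals of KO minus WT, 0 lay above 0 and 2 below it: Trav4-4-dv10 at -4.33 points (-9.99 to -0.445) and Trav14n-3 at -3.93 points (-9.36 to -0.332). Trav14-2 and Trav16 followed at -3.15 points each (-8.36 to 0.239). On the other side were Trav3-3 with 1 WT and 10 KO cells (2.97 points, -0.907 to 6.05), Trav19 with 0 and 7 (2.62 points, -0.568 to 5.31) and Trav13-2 with 2 and 11 (2.57 points, -1.75 to 5.87).

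Summed by family name, which pools near-identical copies, Trav13 held 17 WT (13.2%) and 35 KO cells (13.1%), Trav6 held 15 (11.6%) and 35 (13.1%), Trav7 held 13 (10.1%) and 28 (10.5%), and Trav14 held 21 (16.3%) and 26 (9.74%). The Trav14 difference was -6.54 points (-14.5 to 0.25). Trav3 held 1 WT cell (0.775%) and 13 KO cells (4.87%), a family chosen here after its value was seen, with a difference of 4.09 points (0.0746 to 7.44). Between CD4 and CD8 cells the largest differences of equal sign in both libraries were on the CD4 side Trav4-4-dv10, with 7 of 54 CD4 and 0 of 36 CD8 cells in WT and 2 of 107 and 0 of 76 in KO, and Trav9-1, with 2 and 0 in WT and 7 and 0 in KO. On the CD8 side Trav12-2 was given to 3 CD8 and 0 CD4 cells in each library, Trav5-4 to 3 CD8 cells in each library and to 0 (WT) and 2 (KO) CD4 cells, and Trav13-1 to 4 CD8 and 2 CD4 cells in WT and 5 of each in KO. These counts are too small to separate most segments.

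Cells given both a Trav and a Trbv segment numbered 123 in WT and 250 in KO, and they held 110 and 218 different pairs. The most frequent pair was Trav6-7-dv9 with Trbv19 in both libraries, in 3 WT and 4 KO cells. The junction, which would tell clones apart, is not part of the counts.

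The position of the Trav segment along the locus differed between the groups (the plot of distances to Trac). The alpha locus is known to be recombined from the segments nearest to the constant gene Trac outward. In Rag1/Dntt-positive cells the median distance of the segment to Trac was 477 kb in WT (17 cells, quartiles 463 and 579 kb) and 571 kb in KO (38 cells, 463 and 675 kb). In CD4 cells it was 689 kb (54 cells) and 675 kb (107 cells), and in CD8 cells 647 kb (36 cells) and 675 kb (76 cells). Distances cover only segments that could be counted. Trav genes with few unique windows were often below the UMI limit (above), and their part in these distances was not tested.

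**Figure D4:**
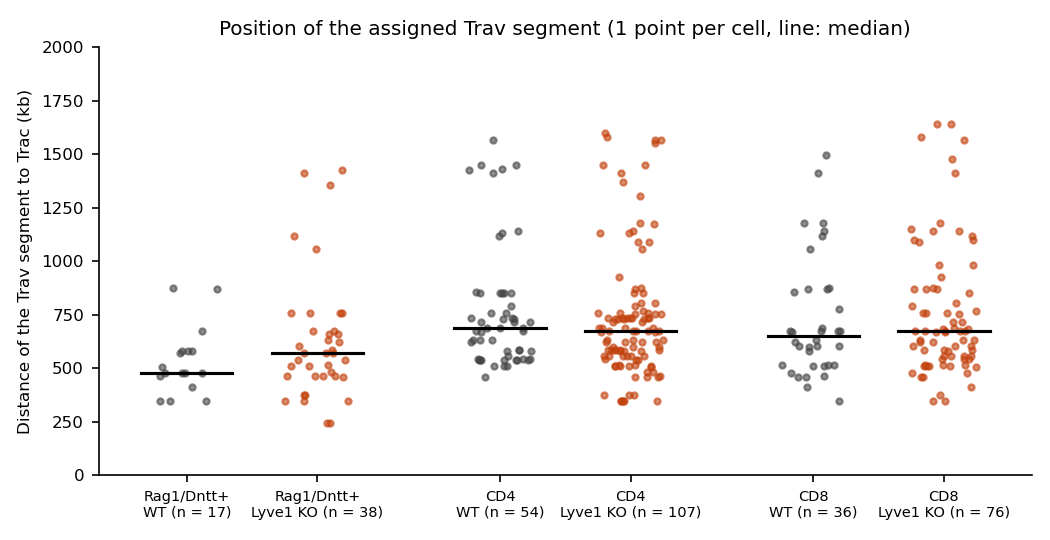
Distance in kilobases between the Trav segment given to a cell and the constant gene Trac (y axis), with 1 point per cell and the median as a line, for Rag1/Dntt-positive, CD4 and CD8 cells of WT (grey) and Lyve1 KO (orange). The medians of the Rag1/Dntt-positive cells (477 and 571 kb) lie below those of the CD4 and CD8 cells (647 to 689 kb).

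Segments within 500 kb of Trac, a limit chosen after the values were seen, were given to 9 of 17 WT and 13 of 38 KO Rag1/Dntt-positive cells, against 1 of 54 and 14 of 107 CD4 cells and 6 of 36 and 8 of 76 CD8 cells. The Rag1/Dntt-positive minus CD4 difference was 51.1 points in WT (27.7 to 72.0) and 21.1 points in KO (6.03 to 37.8). Trav21-dv12, 344 kb from Trac, was given to 3 Rag1/Dntt-positive cells of each library, Trav16 (477 kb) to 4 WT and 0 KO cells and Trav13-4-dv7 (463 kb) to 1 and 4. The Rag1/Dntt-positive group keeps cells with a Trdc UMI (46 of 87 WT and 28 of 64 KO cells), which the CD4 and CD8 groups leave out. How many of the segments near Trac, among them those named with "dv", belong to a delta chain was not tested.

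Segments named with "dv" were more frequent among the few Trdc-positive cells that were given a Trav segment. They were 3 of 4 such WT cells and 7 of 13 KO cells, against 11 of 54 and 15 of 107 in the CD4 group. The difference between Trdc-positive and CD4 cells was 54.6 points in WT (7.98 to 76.8) and 39.8 points in KO (13.9 to 63.4). In Rag1/Dntt-positive cells they were 5 of 17 and 17 of 38. Such segments can serve the delta chain, and the Trdc-positive group was formed by its constant gene. The CD4 group leaves out cells with a Trdc UMI, so part of the difference between Trdc-positive and CD4 cells was fixed in advance.

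Trdv4 was the leading delta segment of the Trdc-positive group. It was given to 36 of the 42 WT cells with a Trdv segment (85.7%, interval 71.5% to 94.6%) and to 37 of the 56 KO cells (66.1%, 52.2% to 78.2%). Trdv2-2 was given to 2 and 11 of these cells, Trdv5 to 4 and 6, and Trdv1 to 0 and 2. The Trdv4 difference was -19.6 points (-34.7 to -2.18) and the Trdv2-2 difference 14.9 points (1.08 to 27.6). Both shrank with cells thinned to one depth, to Trdv4 shares of 86.8% and 84.1% and Trdv2-2 shares of 5.26% and 6.82%, and Trdv2-2 shares 221 of its 397 transcript bases in 1 run with Trdv2-1, which had 0 UMIs.

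On the gamma side, 33 of 38 WT cells (86.8%) and 31 of 50 KO cells (62.0%) were given Tcrg-V6, a difference of -24.8 points (-40.5 to -6.19) that was -18.9 points after thinning. Trgv2 was given to 4 WT (10.5%, 2.94% to 24.8%) and 11 KO cells (22%, 11.5% to 36.0%). Cells with both Trdv4 and Tcrg-V6 numbered 31 of 50 in WT and 30 of 76 in KO (the plot of gamma and delta segments). This pair is known from gamma-delta T cells of the fetal wave that make interleukin 17 and live in tissues.

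**Figure D5:**
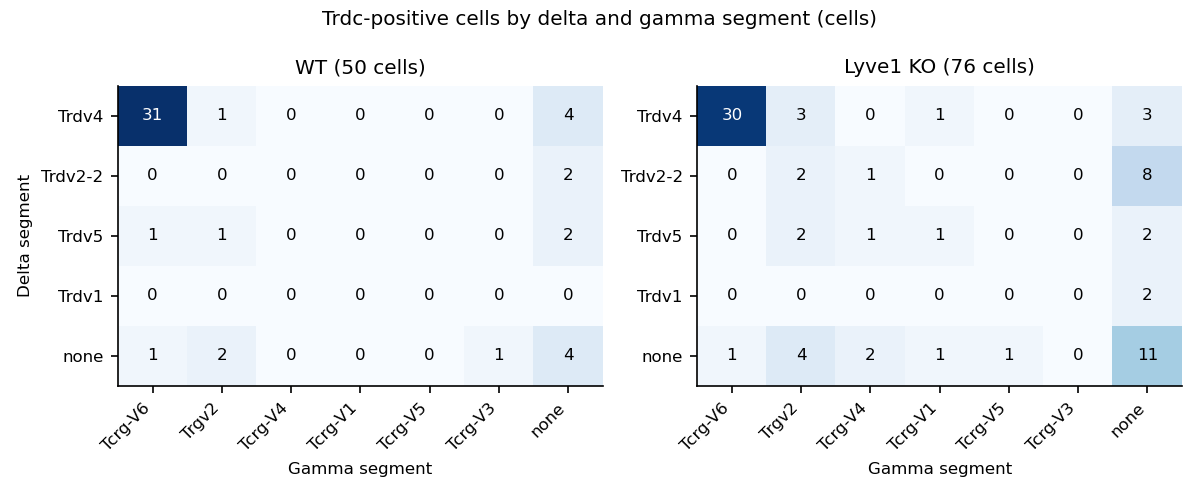
Number of Trdc-positive cells by delta segment (rows) and gamma segment (columns), "none" where no segment was given, for 50 WT and 76 Lyve1 KO cells; darker blue means more cells. The pair Trdv4 and Tcrg-V6 holds 31 WT and 30 KO cells, and Trdv2-2 without a gamma segment 2 and 8.

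Genes of interleukin 17-making gamma-delta cells were read in these Trdv4 cells of the Trdc-positive group. Il17a had a UMI in 14 of 36 WT and 13 of 37 KO cells, Il23r in 33 and 35 and Cd163l1 in 33 and 36. In the 11 KO cells given Trdv2-2, Cd163l1 had a UMI in 3 cells, Il17a in 4 and Il1rl1 in 5. Summed over the Trdc-positive cells, KO was higher than WT for Cd8a (45.8 against 14.7 CPM), Cd4 (21.3 against 1.33 CPM) and Themis (175 against 67.9 CPM). Cd8a had a UMI in 7 of 76 KO and 3 of 50 WT cells, Cd4 in 9 and 1, and Themis in 24 and 7. The 5 B cell markers summed to 436 CPM in KO and 218 CPM in WT, and the 5 macrophage markers to 10.3 and 1367 CPM. In WT, C1qa, C1qb, C1qc and Lyz2 each had a UMI in only 3 of the 50 cells, so the macrophage sum does not describe the group. The part of these values in the lower Trdv4 share was not tested.

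The Rag1/Dntt-positive cells used the delta and gamma segments differently. Trdv4 was given to 1 of 24 WT and 0 of 8 KO cells with a Trdv segment, Trdv2-2 to 10 and 3, Trdv1 to 6 and 3, and Trdv5 to 6 and 2. On the gamma side Trgv2 was given to 14 of 21 WT and 5 of 7 KO cells and Tcrg-V4 to the others (7 and 2), while Tcrg-V6 was given to none of them.

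Trdv4 was also read in cells without a Trdc UMI. In the group with neither or both coreceptors it was given to 23 of 92 WT and 26 of 133 KO cells, which were 23 of 23 and 26 of 31 of the cells with a Trdv segment. Of these cells, 17 WT and 25 KO had a UMI of Il1rl1 and 22 and 26 of Gata3, while Il17a had 0 UMIs in all of them. These cells count as T cells here through their Cd3 UMIs, so the shares over all T cells include them. Whether they are innate lymphoid cells was not tested. In their whole group the 10 T cell markers summed to 1814 (WT) and 2144 CPM (KO), against 3457 CPM or more in each remaining group. Among the Trdv4 cells of the Trdc-positive group, Il1rl1 had a UMI in 3 WT and 1 KO cells. Tcrg-V6 was given to 4 of the 23 WT cells and 0 of the 26 KO cells. The Trdv4 UMIs of these cells were few, with a median of 4 UMIs of the given segment in the group against 22 (WT) and 29 (KO) in the Trdc-positive group.

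Many cells held UMIs of a second segment of the same locus. Among cells given a Trbv segment, at least 2 UMIs of another were held by 89 of 247 WT cells (36.0%, 30.04% to 42.4%) and 164 of 414 KO cells (39.6%, 34.9% to 44.5%). With cells thinned to one depth these were 21.4% and 19.7%. The second Trbv segment had a median of 16.3% and 22.6% of the UMIs of the first, and more than 50% in 21 WT and 29 KO cells. For Trav the shares of cells were 28.7% and 28.8%, with medians of 50% and 40% of the first segment's UMIs. At the gamma locus they were the highest, at 35 of 75 WT cells (46.7%, 35.1% to 58.6%) and 54 of 79 KO cells (68.4%, 56.9% to 78.4%), with medians of 45% and 37.5%. For Trdv they were 2.17% and 8.91%.

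The second Trbv segment was not spread evenly. It was Trbv12-2 in 28 of 89 WT cells (31.5%) and 60 of 164 KO cells (36.6%), and Trbv13-2 in 15 and 21. The pair of Trbv12-2 first and Trbv13-2 second was held by 11 WT and 17 KO cells, and the reverse by 2 and 5. These segments lie 2.03 kb apart, and their longest shared run is 18 bases, so their windows of 60 bases do not overlap. Trbv12-2 was second behind Trbv19 in 5 WT and 13 KO cells, behind Trbv15 in 5 and 8 and behind Trbv14 in 4 and 7, with shared runs of 10 or 11 bases. At the gamma locus Trgv2 was the second segment in 14 of 35 WT and 22 of 54 KO cells, most often behind Tcrg-V6 (12 and 18 cells). The longest run it shares with Tcrg-V6 is 10 bases.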

How the data were processed

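The authors sorted live CD45+ heart cells, made 10x Genomics 5′ libraries and counted them with Cell Ranger 8.0.1 on mm10 (GRCm38), per the submitters' processing notes and the labels. The deposited values are raw UMI counts per gene and cell, restricted to called cells. The limits of the study's methods (500 genes and 250 UMIs as minimum, 30% mitochondrial UMIs as maximum) were applied to cells. Counts were read in Python 3.11.15 with SciPy 1.17.1 and NumPy 2.4.6. Shares have exact (Clopper-Pearson) 95% intervals and differences of shares Newcombe intervals. PCR-derived counts and cells of 1 library are no replicates, so no test was run. Log2 ratios used CPM + 10 and genes with at least 20 UMIs. Positions and sequences are from GENCODE M21. For equal depth, cells were thinned to 5100 UMIs, the 10th percentile of T cells rounded down to a multiple of 100, and 56 WT and 39 KO shallower T cells were left out. Trbv assignment and ratios were tested on simulated data, in which a cell had a single true Trbv segment and few stray UMIs. Second segments, reads shared between copies and the other loci were not simulated. Members, lists, cell groups and comparisons were chosen with earlier results of these data known. Named segments are the most used 5 Trbv and Trav per library, the largest differences between libraries and between CD4 and CD8 cells, all Trdv and Trgv members, Trav11, Trav11d, Trav1 and Trbv31, the 3 members with the most UMIs outside T cells, and list genes. Segments in the text on second segments, on position, on UMI ratios and Trbv23 were chosen after their values were seen, as were Il1rl1, Mki67, Top2a, Traj18 and the Tcrg-V genes. The strain of the WT mice and whether intronic reads were counted are not given in the sources used here. No doublet caller was run. A gene of the marker lists is not reported here.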

Additional observations from a re-analysis of the deposited data

How the results depend on the processing

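No paired analysis was possible because each genotype has 1 library and no result comes from a test. Over 52 results, 361 of 410 alternative values stayed within counting error (for counts of members, within 1.5 times), 49 moved and 0 reversed. These counts are of values within 1 library, and differences between libraries are given at the end. For all values that moved the cause was not tested. The settings for the UMI ratios, the CD4 and CD8 usage, second segments and the members' UMIs that repeat the usage settings were added after seeing the data. Values are WT first and KO second unless 1 library is named. The share of the members' UMIs in T cells was 95.3% and 97.0% with T cells from 6 Cd3 UMIs, 96.2% and 97.1% without cell limits, 97.8% and 98.8% with strict limits (1000 genes, 10% mitochondrial UMIs), and 84.1% and 90.4% with possible doublets left out. Cells given a Trbv segment were 74.9% and 80.1% from 6 Cd3 UMIs, 70.6% and 77.4% with segments from 1 UMI, and 66.4% in KO after thinning. For Trav they were 40.9% and 51.7% from 6 Cd3 UMIs, 22.5% and 29.98% after thinning, 47.2% and 58.1% from 1 UMI and 27.8% and 39.2% from 3 UMIs. For Trdv they were 16% and 11.0% after thinning, 30.97% and 23.1% from 1 UMI, and 19.4% in WT from 3 UMIs. For the gamma segments they were 15.7% and 10.4% after thinning and 24.1% and 18.2% from 1 UMI. Second Trbv segments were held by 21.4% and 19.7% after thinning, and second Trav segments by 13.7% and 15.2% after thinning, 20.6% and 23.4% from 1 UMI and 34.7% in KO from 3 UMIs. By share of UMIs instead of cells, Trbv15 was at 12.3% of KO T cells' Trbv and 23.5% of KO CD4 cells', Trdv4 at 94.8% and 89.7%, Tcrg-V6 at 64.6% in WT and Trdv2-2 at 5.74% in KO. In the Trdc-positive group of KO, thinning gave Trdv4 84.1% and Trdv2-2 6.82%. With Rag1/Dntt and Trdc from 3 UMIs, Trdv4 was at 80.5% in KO and Trdv2-2 at 0% in WT. With 1 CPM added in place of 10, 23 members were past the log2 ratio on the KO side and 4 on the WT side. The KO minus WT sign depended on the setting for Trbv15 (over all T cells and in CD4 cells), Trbv19, Trbv12-2 in CD8 cells, Trav13-1, Trav6-7-dv9 and the second Trbv and Trav segments. Small numbers of cells and 1 library per genotype limit all comparisons.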
